A study of Mus musculus with 4 samples.

Results

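The genes described here encode the chaperones and folding enzymes of the endoplasmic reticulum (ER) and the components of the unfolded protein response. They were taken as a fixed list of 35 gene symbols, and all 35 were found among the 23377 genes of the count table. Polyadenylated RNA was sequenced from mouse cancer-associated fibroblasts (CAFs), the fibroblasts that live within a tumour. The resistant tumour CAFs (titled RES4) and the normal tumour CAFs (titled WTA) have 2 libraries each. The series is about lactate from cancer cells and how tumours escape drugs that block MET and EGFR, receptor kinases that drive growth, and the comparison asks how CAFs of resistant tumours differ from CAFs of normal tumours. The labels give no strain, age, treatment, sort or passage for either group, and they name both a TruSeq kit and a SMART-seq2 protocol without saying which libraries were made with which. Within a group the titles differ only in the replicate number, so each group may come from 1 tumour or culture. The design text calls the replicates biological without naming separate animals or cultures, so the p-values speak of the variation among these libraries, part of which may be technical.

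Proteins that enter the secretory pathway are threaded into the ER through the Sec61 channel, held by chaperones such as BiP (Hspa5), cross-linked by protein disulfide isomerases and, if they fail to fold, sent back to the cytosol for degradation. When unfolded proteins build up, the membrane sensors IRE1 (Ern1), PERK (Eif2ak3) and ATF6 (Atf6) start the unfolded protein response, in which the transcription factors XBP1, ATF4 and the released part of ATF6 raise the transcription of chaperone and degradation genes. Fibroblasts secrete large amounts of collagen and other matrix, and also use chaperones dedicated to collagen such as HSP47 (Serpinh1). Gene counts hold the total Xbp1 transcript and cannot show its splicing by IRE1 or the cleavage of ATF6.

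The libraries held 2845237 and 2785936 reads in resistant tumour CAFs, against 3948066 and 5558541 reads in normal tumour CAFs. Values are given in CPM, read counts set against the TMM-scaled library total, and differences as log2 fold changes (log2FC) of resistant over normal tumour CAFs ± standard error (SE) from edgeR's quasi-likelihood test, called at a Benjamini-Hochberg adjusted p under 0.05 over 12001 genes. Log2 CPM correlated across genes, which are not independent replicates, at r = 0.935 between the resistant and 0.970 between the normal replicates, and at 0.655 to 0.699 between groups. Markers of cell type moved with the groups. The summed level of 14 fibroblast markers was 10900 and 10300 CPM in resistant, against 5140 and 4260 CPM in normal tumour CAFs, and 12 of the 13 tested were called higher. Of 11 Schwann cell and neural crest markers, summed at 246 and 268 CPM in resistant and 1420 and 1260 CPM in normal tumour CAFs, 7 of 8 tested were lower, and Pmp22 was higher. Without Pmp22 the sums were 8.37 and 8.44 CPM in resistant and 1290 and 1140 CPM in normal tumour CAFs. Sums were 45.7 and 63.9 CPM in resistant, against 9.66 and 9.26 CPM in normal tumour CAFs, for 8 epithelial markers. Krt19, which was called higher, made up the whole of the resistant sums, and the other 7 were at 0 in both resistant libraries. Krt14 had 0 and 0 reads in resistant, against 12 and 15 reads in normal tumour CAFs. Epcam, Cdh1, Krt5 and Cldn4 had no read in any library. For 8 leukocyte markers the sums were 17.1 and 18.4 CPM in resistant, against 7.19 and 7.41 CPM in normal tumour CAFs. Lyz2 was higher, and Ptprc, Emr1 and Cd3e were at 0 in all. The sums of 5 endothelial markers were at most 2.66 CPM. The sums of 5 plasma cell markers were 202 and 323 CPM in resistant, against 239 and 267 CPM in normal tumour CAFs. Sdc1 made up most, and Igj was at 0 in all libraries. Mzb1, Prdm1 and Irf4 were at 0 in resistant tumour CAFs and had at most 5 reads in a normal library. The part of cell type in the differences below was not tested, and in bulk RNA fewer cells of a type and less RNA per cell cannot be told apart.

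Resistant tumour CAFs had lower levels of 6 of the genes, all of them partners or co-factors of BiP or small ER stress proteins: Hyou1, Dnajb11, Dnajc3, Sdf2l1, Creld2 and Manf. They had higher levels of 3, the disulfide isomerase gene P4hb, the ER oxidase gene Ero1l and the collagen chaperone gene Fkbp10. BiP itself, the lectin chaperones, the stress sensors, the degradation genes and the Sec61 channel genes were not called. Of the 34 genes tested, 26.5% were called, against 29.4% of all genes tested, so the share called was near the background. By direction, 3 of 34 were higher, against a background of 15.5%, and 6 of 34 were lower, against 13.9%. The median log2 fold change was -0.18 over the 34 genes and 0.00 over all genes tested, and 9 of the 34 had a positive value. In 15 of the 34 genes, or 44.1%, the CPM of the groups did not overlap, against 64.7% of all genes tested (31.9% with the resistant libraries above the normal ones and 32.9% with them below). The 35 genes together took 0.752% and 0.799% of all reads in resistant, against 0.931% and 0.881% in normal tumour CAFs.

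**Figure D1:**
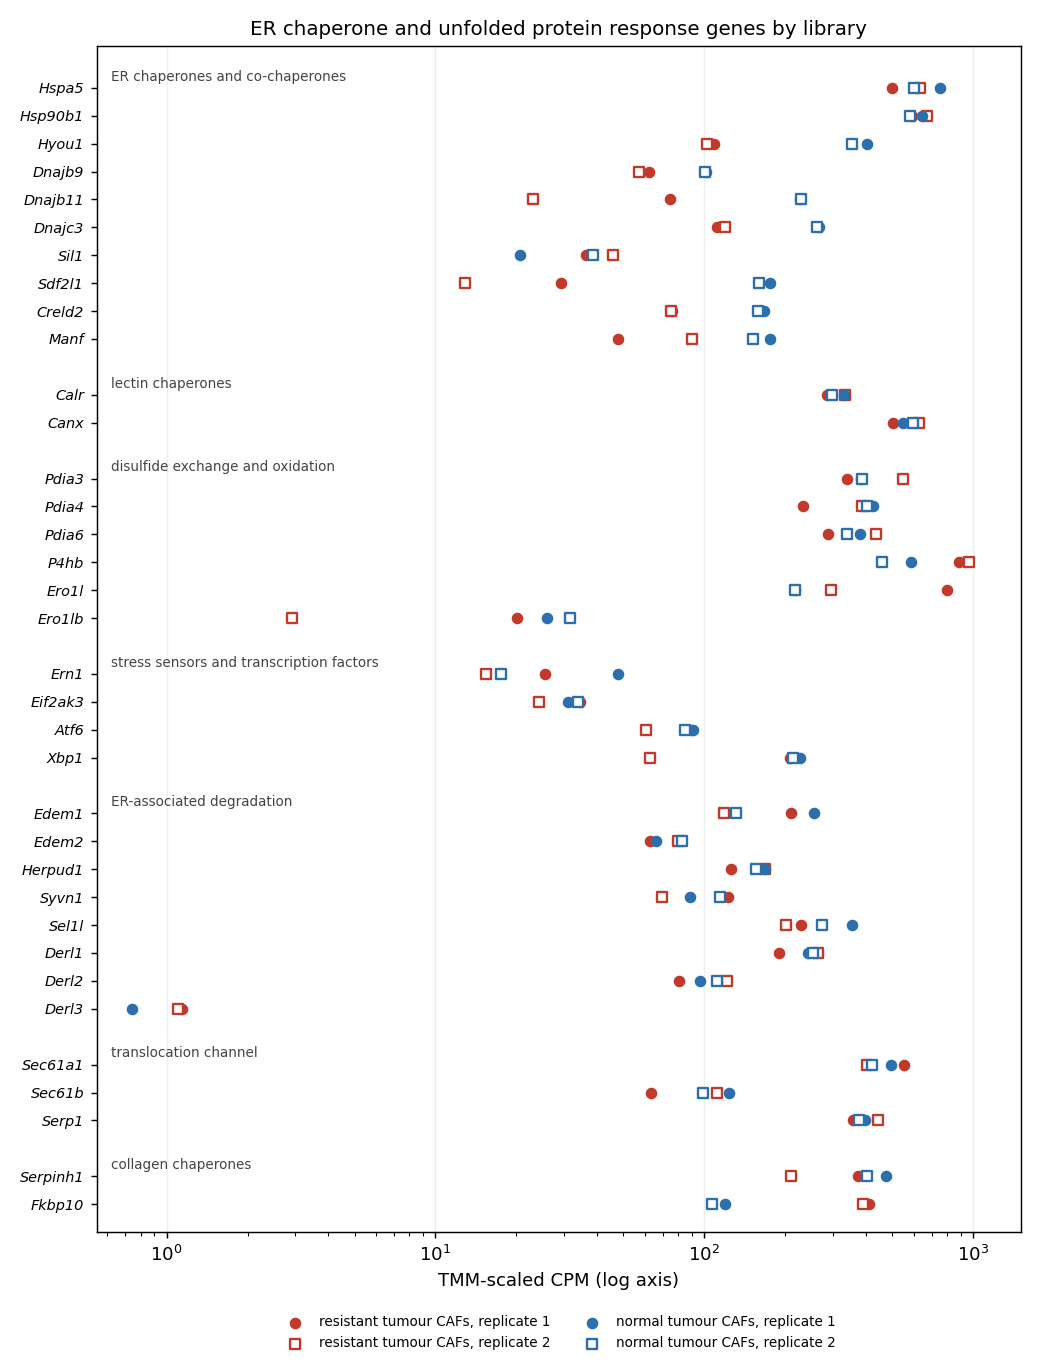
Level of each of the 35 genes in TMM-scaled CPM on a log axis, by role, with 1 point per library; filled circles are replicate 1 and open squares replicate 2. The resistant points of Hyou1, Dnajb11, Dnajc3, Sdf2l1, Creld2 and Manf lie left of both normal points, those of P4hb, Ero1l and Fkbp10 lie right of them, and Derl3 has no point for normal replicate 2, where it had no read.

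The ER stress response element (ERSE) is a promoter sequence known to bind the factor NF-Y at CCAAT and ATF6 at CCACG. It is shown here because it was first described in the promoters of these chaperones. Promoter windows of RefSeq (build GRCm38.p6; the counts were made on mm9, and no coordinate of theirs enters here) reach from 250 bases before to 50 after each gene start, and 26 of the 35 genes had one. ERSE was searched as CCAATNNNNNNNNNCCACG and its shorter form ERSE-II as ATTGGNCCACG, on both strands; no gene of the list held both forms. ERSE was present in 9 of the 26 genes (34.6%), against 39 of 32851 windows in the table (0.119%). ERSE-II was present in 2 of the 26 (7.69%), against 12 windows (0.0365%). Each matching stretch follows on the strand of the gene, 5′ to 3′, with the fixed letters of the element in capitals, and for Hspa5 the 200 bases before the start are given.
Hspa5 (chr2:34771890-34772089, plus strand): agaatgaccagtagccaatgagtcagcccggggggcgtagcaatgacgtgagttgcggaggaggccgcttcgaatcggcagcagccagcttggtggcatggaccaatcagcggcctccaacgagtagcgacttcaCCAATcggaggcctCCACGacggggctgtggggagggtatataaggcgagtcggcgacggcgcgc
Hsp90b1 (chr10:86705521-86705668, minus strand): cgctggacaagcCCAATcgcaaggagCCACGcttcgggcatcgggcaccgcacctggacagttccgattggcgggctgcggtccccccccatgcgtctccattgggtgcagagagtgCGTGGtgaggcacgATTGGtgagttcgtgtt
Calr (chr8:84847063-84847105, minus strand): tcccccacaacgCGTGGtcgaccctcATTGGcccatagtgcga
Canx (chr11:50325788-50325830, minus strand): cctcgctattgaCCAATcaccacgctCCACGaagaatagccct
Pdia6 (chr12:17266479-17266521, plus strand): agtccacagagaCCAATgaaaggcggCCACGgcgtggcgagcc
Syvn1 (chr19:6046520-6046562, plus strand): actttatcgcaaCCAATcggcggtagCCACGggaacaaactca
Herpud1 (chr8:94386365-94386399, plus strand): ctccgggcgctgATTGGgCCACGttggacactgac
Dnajc3 (chr14:118937815-118937857, plus strand): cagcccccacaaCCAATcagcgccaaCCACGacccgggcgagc
Creld2 (chr15:88819508-88819550, plus strand): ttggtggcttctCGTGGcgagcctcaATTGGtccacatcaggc
Dnajb11 (chr16:22857852-22857862, plus strand): ATTGGcCCACG
Derl3 (chr10:75893230-75893272, plus strand): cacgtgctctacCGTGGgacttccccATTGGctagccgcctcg
The Dnajb11 element begins 8 bases after the start, and only its matched bases are shown. Hsp90b1 held an element on each strand. Sdf2l1, the gene with the most negative log2 fold change of the list, held no exact match to either element in its window. The 150 bases before its start are shown for comparison.
Sdf2l1 (chr16:17132384-17132533, minus strand): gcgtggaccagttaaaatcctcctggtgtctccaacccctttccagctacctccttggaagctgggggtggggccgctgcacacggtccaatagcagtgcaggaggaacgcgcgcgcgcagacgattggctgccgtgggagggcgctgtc
The elements were found in genes that fell and in genes that were not called. Of the 10 tested genes with an element, 3 were lower (Dnajc3, Creld2 and Dnajb11) and 0 higher, with a median log2 fold change of -0.11 and a range of -2.22 to 0.05. Of the 15 tested genes with a window and no element, 1 was lower and 1 higher, with a median of -0.34. Of all genes tested, 13.9% were lower and 15.5% higher. The 9 genes with no window were not searched, and they hold 4 of the 9 called genes, Hyou1 and Manf (lower) and Ero1l and Fkbp10 (higher). A further 28 genes of the table held ERSE in a window, of which 8 were tested. Of these 8, 3 (Acacb, Adcy3 and Spats2l) were higher and 0 lower, against the same 15.5% and 13.9% of all genes tested. ERSE-II was held by 10 genes outside the list, of which 6 were tested, with 1 higher and 0 lower. Only exact matches to the fixed letters were counted, so near matches were left out. A match is a description of the letters and not a site shown to be bound.

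Among the chaperones and their partners, the major Hsp70 and Hsp90 of the ER were not called. Hspa5, which encodes BiP, stood at 501 and 634 CPM in resistant tumour CAFs, against 753 and 604 CPM in normal tumour CAFs, with a log2FC of -0.26 ± 0.23 (adjusted p = 0.45). The groups overlapped. Hsp90b1, which encodes GRP94, stood at 594 and 673 CPM in resistant tumour CAFs, against 643 and 581 CPM in normal tumour CAFs, with a log2FC of 0.05 ± 0.21 (adjusted p = 0.89), and the groups overlapped again. Both calls depended on how trends of level were treated, and in the GENCODE annotation of GRCm38 15.7% of the exonic bases of Hsp90b1 lie in exons of other genes. With offsets that remove each library's trend of level along mean log2 CPM, Hspa5 was called lower (log2FC -0.80, adjusted p = 0.00505) and Hsp90b1 turned to a lower call (log2FC -0.50, adjusted p = 0.0473). With offsets along reads per exonic base, Hspa5 was called lower (log2FC -0.58, adjusted p = 0.0287) and Hsp90b1 was not (log2FC -0.28, adjusted p = 0.262).

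Several partners of BiP were lower. Hyou1, which encodes GRP170, a large Hsp70-like chaperone that exchanges the nucleotide on BiP, stood at 109 and 103 CPM in resistant tumour CAFs, against 404 and 353 CPM in normal tumour CAFs. Both resistant libraries were below both normal libraries, and the log2FC was -1.84 ± 0.25 (adjusted p = 0.000163). Sil1, the other nucleotide exchange factor of BiP in the list, stood at 36.1 and 45.9 CPM in resistant tumour CAFs, against 20.6 and 38.5 CPM in normal tumour CAFs, with a log2FC of 0.47 ± 0.43 (adjusted p = 0.461), and was not called. Dnajb11 encodes ERdj3, a J-domain protein that hands unfolded proteins to BiP. It stood at 74.6 and 23.1 CPM in resistant tumour CAFs, against 227 and 229 CPM in normal tumour CAFs, with a log2FC of -2.22 ± 0.44 (adjusted p = 0.00216). The normal replicates were close and the resistant ones were not, yet both lay below the normal values. Sdf2l1, which encodes a partner found in complex with ERdj3, stood at 29.3 and 12.8 CPM in resistant tumour CAFs, against 175 and 159.7 CPM in normal tumour CAFs, with a log2FC of -2.99 ± 0.41 (adjusted p = 0.000171), and resistant replicate 2 was again the lower of the pair. Hyou1, Dnajb11 and Sdf2l1 were called lower under each of the 15 alternatives, with log2 fold changes of -2.00 to -1.79, -3.29 to -1.61 and -3.69 to -2.51.

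Dnajc3 encodes p58IPK, a J-domain co-chaperone of BiP that is also known to inhibit PERK. Its level was 112 and 119.7 CPM in resistant tumour CAFs, against 266 and 262 CPM in normal tumour CAFs, with a log2FC of -1.19 ± 0.26 (adjusted p = 0.00376). Creld2 and Manf encode small ER proteins that are induced by ER stress, and MANF is also secreted. Creld2 stood at 76.1 and 74.9 CPM in resistant tumour CAFs, against 166 and 159 CPM in normal tumour CAFs, with a log2FC of -1.10 ± 0.29 (adjusted p = 0.0122). For Manf the values were 47.9 and 90.3 CPM in resistant tumour CAFs, against 176 and 151 CPM in normal tumour CAFs, with a log2FC of -1.24 ± 0.35 (adjusted p = 0.0171). In all 3 genes both resistant values lay below both normal values. None of the 3 was called without normal replicate 1 (adjusted p = 0.0756, 0.207 and 0.194) or without normal replicate 2 (0.0918, 0.209 and 0.115), although their log2 fold changes stayed between -1.37 and -1.14 there. In the GENCODE annotation of GRCm38, 9.25% of the exonic bases of Manf lie in exons of other genes, and the strand setting of the counting is not given in the sources used here. Dnajb9, the J-domain protein ERdj4, stood at 62.0 and 57.3 CPM in resistant tumour CAFs, against 101 and 100.3 CPM in normal tumour CAFs, without overlap, and with a log2FC of -0.76 ± 0.32 (adjusted p = 0.101) it was not called; without resistant replicate 1 it was (log2FC -0.81, adjusted p = 0.034).

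Reads set against those of Hspa5 in the same library need no scaling factor, and they show the same order. Per 100 Hspa5 reads, Hyou1 had 21.7 and 16.2 in resistant, against 53.7 and 58.5 in normal tumour CAFs. Sdf2l1 had 5.85 and 2.03 in resistant, against 23.2 and 26.5 in normal tumour CAFs. Dnajb11 had 14.9 and 3.65 in resistant, against 30.1 and 37.9 in normal tumour CAFs. In these 3 genes both resistant libraries were below both normal libraries. Dnajc3 had 22.3 and 18.9 in resistant, against 35.4 and 43.4 in normal tumour CAFs per 100 Hspa5 reads. Creld2 had 15.2 and 11.8 in resistant, against 22.1 and 26.3 in normal tumour CAFs, and Manf 9.57 and 14.2 in resistant, against 23.3 and 25 in normal tumour CAFs. Hsp90b1 lay on the other side, at 119 and 106 in resistant, against 85.4 and 96.2 in normal tumour CAFs, although its CPM overlapped between the groups. Hspa5 itself had a log2FC of -0.26 (not called), and its level enters each of these ratios.

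**Figure D2:**
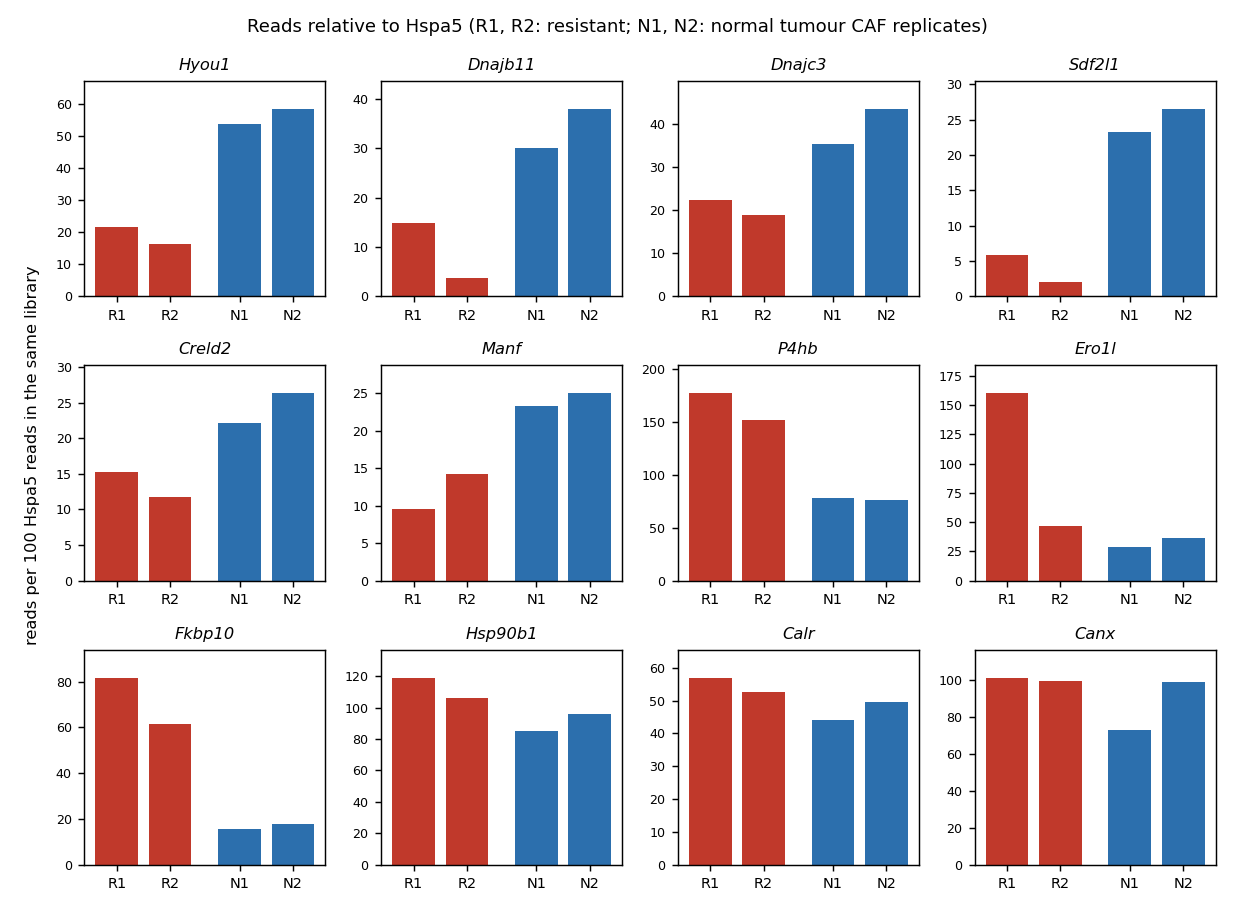
Reads of 12 genes per 100 Hspa5 reads of the same library (bars, 1 per library, each panel with its own axis from 0); R1 and R2 are the resistant and N1 and N2 the normal tumour CAF replicates. The first 6 panels hold the genes called lower, where both resistant bars are below both normal bars. In the panels of P4hb, Ero1l, Fkbp10, Hsp90b1, Calr and Canx both resistant bars are above, the last by 99.3 against 98.9 at the nearest bars. In CPM, the groups overlapped for Hsp90b1, Calr and Canx, and the level of Hspa5 enters every bar.

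The lectin chaperones, which hold freshly glycosylated proteins, were not called, and their groups overlapped. Calr (calreticulin) stood at 285 and 333 CPM in resistant tumour CAFs, against 331 and 299 CPM in normal tumour CAFs, with a log2FC of -0.03 ± 0.23 (adjusted p = 0.948). Canx (calnexin), its membrane-bound relative, stood at 505 and 629 CPM in resistant tumour CAFs, against 547 and 597 CPM in normal tumour CAFs, with a log2FC of -0.01 ± 0.22 (adjusted p = 0.973). Both log2FC were among the 3 smallest in size of the list.

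Of the 6 genes of disulfide exchange and oxidation, 2 were higher and 0 lower, against 15.5% and 13.9% of all genes tested. P4hb encodes protein disulfide isomerase, which is also the beta subunit of the collagen prolyl 4-hydroxylase, and it had the highest level per exonic length of the 35 genes, at 323 in resistant and 182 in normal tumour CAFs (CPM per kilobase). It stood at 887 and 961 CPM in resistant tumour CAFs, against 585 and 458 CPM in normal tumour CAFs, with a log2FC of 0.83 ± 0.22 (adjusted p = 0.0133), and the groups did not overlap. That call was lost without resistant replicate 2 (log2FC 0.77, adjusted p = 0.0673) and without normal replicate 2 (log2FC 0.62, adjusted p = 0.19). It was also lost with the offsets along mean log2 CPM (log2FC 0.25, adjusted p = 0.297) and along reads per exonic base (log2FC 0.39, adjusted p = 0.125). Ero1l encodes ERO1 alpha, the oxidase that recharges protein disulfide isomerase and a known target of the hypoxia response. It stood at 799.8 and 296 CPM in resistant tumour CAFs, against 218 and 218 CPM in normal tumour CAFs, with a log2FC of 1.33 ± 0.37 (adjusted p = 0.0156). The resistant replicates differed from each other by 1.43 on the log2 scale, whereas the normal replicates were equal to within 0.01. Ero1l was not called without resistant replicate 1 (log2FC 0.45, adjusted p = 0.106) or with offsets along reads per exonic base (log2FC 1.31, adjusted p = 0.0519). Ero1lb, the second ERO1 oxidase, which is best known from the pancreas, stood at 20.2 and 2.94 CPM in resistant tumour CAFs, against 26.01 and 31.6 CPM in normal tumour CAFs. It had a log2FC of -1.32 ± 0.63 (adjusted p = 0.143), without overlap and not called, but was called lower without resistant replicate 1 (log2FC -3.28, adjusted p = 0.00406) and under 4 other alternatives. Without resistant replicate 2 it had a log2FC of -0.52 (adjusted p = 0.32). Of the reads of both oxidases, Ero1l held 97.5% (95% exact binomial interval 96.8 to 98.2) and 99.0% (98.1 to 99.6) in resistant, against 89.3% (87.2 to 91.2) and 87.3% (85.5 to 89.0) in normal tumour CAFs. These intervals cover counting error only.

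The remaining isomerases were not called. Pdia3 (ERp57), which works with calnexin and calreticulin, stood at 339 and 550.2 CPM in resistant tumour CAFs, against 383 and 387 CPM in normal tumour CAFs, with a log2FC of 0.21 ± 0.26 (adjusted p = 0.601). Pdia6 (P5), a partner of BiP, stood at 288 and 436 CPM in resistant tumour CAFs, against 379 and 338 CPM in normal tumour CAFs, with a log2FC of 0.02 ± 0.26 (adjusted p = 0.971), and the groups overlapped. Pdia4 (ERp72) stood at 232 and 385 CPM in resistant tumour CAFs, against 426 and 401 CPM in normal tumour CAFs, with a log2FC of -0.42 ± 0.27 (adjusted p = 0.275). It was called lower without resistant replicate 2 (log2FC -0.83, adjusted p = 0.0338), with offsets along mean log2 CPM (log2FC -0.77, adjusted p = 0.0316) and along reads per exonic base (log2FC -0.79, adjusted p = 0.0193). Without resistant replicate 1 it had a log2FC of -0.10 (adjusted p = 0.744). In all 3 genes resistant replicate 1 was lower than resistant replicate 2, by 0.60 to 0.73 on the log2 scale.

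Neither the sensors nor Xbp1 were called. Ern1, which encodes IRE1 alpha, the kinase and nuclease that splices Xbp1, stood at 25.5 and 15.4 CPM in resistant tumour CAFs, against 47.6 and 17.5 CPM in normal tumour CAFs, with a log2FC of -0.66 ± 0.52 (adjusted p = 0.38). The spread between the normal replicates was wider than the difference between the groups. Eif2ak3, which encodes the eIF2 alpha kinase PERK, stood at 34.6 and 24.2 CPM in resistant tumour CAFs, against 31.2 and 33.8 CPM in normal tumour CAFs, with a log2FC of -0.15 ± 0.40 (adjusted p = 0.827). Atf6 stood at 89.4 and 60.9 CPM in resistant tumour CAFs, against 90.7 and 84.5 CPM in normal tumour CAFs, with a log2FC of -0.22 ± 0.34 (adjusted p = 0.677). All 3 sensor genes overlapped between the groups and had levels of at most 9.49 CPM per kilobase. Xbp1 stood at 208 and 62.8 CPM in resistant tumour CAFs, against 227 and 213 CPM in normal tumour CAFs, with a log2FC of -0.70 ± 0.42 (adjusted p = 0.248). Resistant replicate 1 was near the normal libraries and resistant replicate 2 far below them. The result of Xbp1 thus turned on 1 library: without resistant replicate 1 it was called lower (log2FC -1.80, adjusted p = 0.00133), and without resistant replicate 2 it was not (log2FC -0.08, adjusted p = 0.775). It was also called lower with no low-count filter (log2FC -0.76, adjusted p = 0.0451) and with the replicate number as a block (log2FC -0.93, adjusted p = 0.00685).

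The genes of ER-associated degradation, which extracts misfolded proteins for the proteasome, had small differences throughout. None of the 7 tested was called by edgeR's quasi-likelihood test, with log2 fold changes from -0.54 to -0.05; at an unadjusted p under 0.05 there was 1, Sel1l, and DESeq2 called none. Herpud1, which is strongly induced by ER stress and organises the degradation complex, stood at 126 and 168 CPM in resistant tumour CAFs, against 168 and 156 CPM in normal tumour CAFs, with a log2FC of -0.14 ± 0.28 (adjusted p = 0.759). Sel1l, the partner of the ubiquitin ligase HRD1, stood at 229 and 202 CPM in resistant tumour CAFs, against 354 and 275 CPM in normal tumour CAFs, without overlap, with a log2FC of -0.54 ± 0.25 (adjusted p = 0.126). It was called lower without TMM scaling (log2FC -0.68, adjusted p = 0.0446) and with offsets along mean log2 CPM (log2FC -0.78, adjusted p = 0.0202). Syvn1, which encodes HRD1 itself, stood at 123 and 69.7 CPM in resistant tumour CAFs, against 88.4 and 114 CPM in normal tumour CAFs, with a log2FC of -0.08 ± 0.35 (adjusted p = 0.894), and the groups overlapped. Edem1 and Edem2 encode mannosidase-like proteins that mark misfolded glycoproteins. Edem1 stood at 210.0 and 118 CPM in resistant tumour CAFs, against 255 and 131 CPM in normal tumour CAFs, and Edem2 at 62.8 and 80.0 CPM in resistant tumour CAFs, against 66.2 and 82.5 CPM in normal tumour CAFs. Their groups overlapped, and they had log2FC of -0.23 ± 0.36 and -0.06 ± 0.34. Derl1 and Derl2 encode Derlins of the degradation channel. Derl1 stood at 189.9 and 265 CPM in resistant tumour CAFs, against 243 and 253 CPM in normal tumour CAFs, and Derl2 at 80.3 and 121 CPM in resistant tumour CAFs, against 96.6 and 112 CPM in normal tumour CAFs. Both overlapped between the groups and had log2FC of -0.13 ± 0.26 and -0.05 ± 0.32. Derl3 had 3 and 3 reads in resistant, against 3 and 0 reads in normal tumour CAFs. A count of 0 allows up to 3 counts, so Derl3 stood at the floor in all libraries, did not pass the low-count filter and gets no fold change.

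None of the 3 translocation genes was called, by edgeR's quasi-likelihood test or DESeq2, nor had an unadjusted p under 0.05. Sec61a1, the pore of the Sec61 channel, stood at 554 and 402 CPM in resistant tumour CAFs, against 495 and 419 CPM in normal tumour CAFs, with a log2FC of 0.07 ± 0.24 (adjusted p = 0.871). Sec61b, its small beta subunit, stood at 63.5 and 112 CPM in resistant tumour CAFs, against 124 and 98.8 CPM in normal tumour CAFs, with a log2FC of -0.34 ± 0.35 (adjusted p = 0.512). Serp1, which encodes RAMP4, a small protein bound to the channel, stood at 357 and 444 CPM in resistant tumour CAFs, against 395 and 377 CPM in normal tumour CAFs, with a log2FC of 0.05 ± 0.23 (adjusted p = 0.893). The groups overlapped in all 3.

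The collagen chaperones moved apart. Fkbp10 encodes FKBP65, a prolyl isomerase needed for collagen cross-linking, and stood at 409 and 389 CPM in resistant tumour CAFs, against 119 and 107 CPM in normal tumour CAFs. With a log2FC of 1.82 ± 0.25 (adjusted p = 0.000152) it was the gene with the most positive log2 fold change of the list, and it was called higher under each of the 15 alternatives, from 1.64 to 1.86. In the GENCODE annotation 6.58% of its exonic bases lie in exons of another gene on the opposite strand. Serpinh1, which encodes the procollagen chaperone HSP47, stood at 374 and 211 CPM in resistant tumour CAFs, against 475 and 404 CPM in normal tumour CAFs, without overlap. Its log2FC of -0.59 ± 0.28 (adjusted p = 0.145) was opposite in sign to that of Fkbp10 and was not called, although 5 of the 15 alternatives called it lower, among them the fit without resistant replicate 1 (log2FC -1.05, adjusted p = 0.011). Without resistant replicate 2 it had a log2FC of -0.23 (adjusted p = 0.474).

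**Figure D3:**
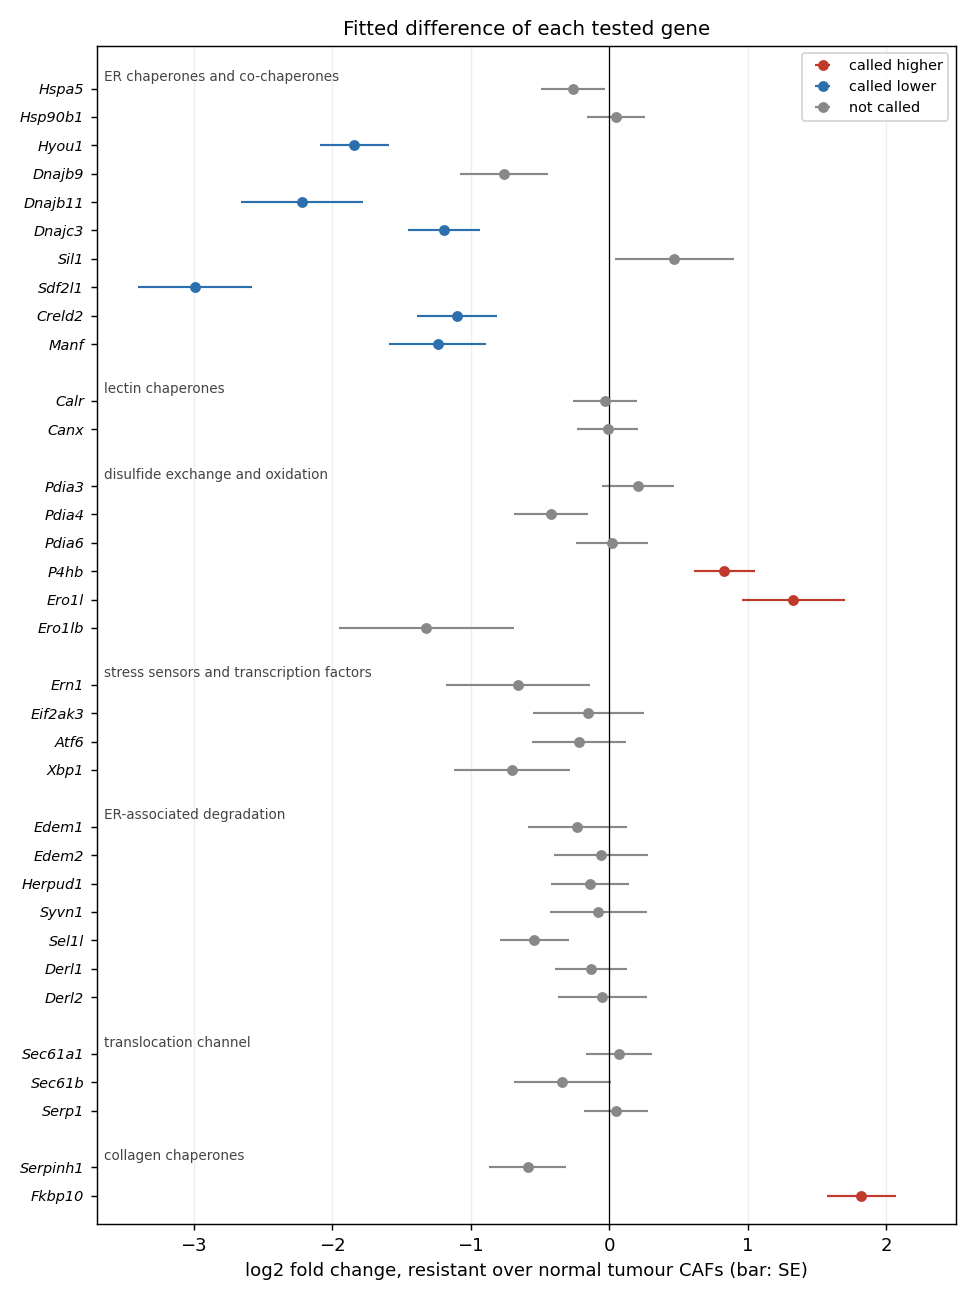
Log2 fold change of resistant over normal tumour CAFs (points) with SE (bars) for the 34 tested genes by role, coloured by the call at an adjusted p under 0.05. The 6 lower calls all lie in the chaperone and co-chaperone group, at -2.99 to -1.10, and the 3 higher calls, at 0.83 to 1.82, lie in the disulfide and collagen groups. The lists by role were chosen with earlier results of these data known.

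Levels per exonic length ran over a wide range and put most genes at like places in both groups. P4hb ranked 1 in both. The order below it differed. Hsp90b1, Pdia3 and Fkbp10 followed in resistant tumour CAFs, at 157, 142 and 136 CPM per kilobase. Serpinh1, Pdia4 and Hspa5 followed in normal tumour CAFs, at 179.9, 172 and 160.4 CPM per kilobase. The largest changes of place were those of called genes. Fkbp10 ranked 4 in resistant and 24 in normal tumour CAFs, at 136 in resistant and 38.5 in normal tumour CAFs (CPM per kilobase). Sdf2l1 ranked 26 in resistant and 6 in normal tumour CAFs, at 19.0 in resistant and 151 in normal tumour CAFs. Ero1l ranked 10 in resistant and 22 in normal tumour CAFs, and Dnajb11 ranked 27 in resistant and 15 in normal tumour CAFs.

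Replicates of the resistant group were less alike than those of the normal group for these genes. The median absolute log2 difference between replicates was 0.50 in resistant and 0.16 in normal tumour CAFs over 34 genes. Differences over 1 were seen in 5 genes in resistant tumour CAFs, namely Dnajb11, Sdf2l1, Ero1l, Ero1lb and Xbp1, all higher in replicate 1, and in 1 gene, Ern1, in normal tumour CAFs. Over all genes the SD of the replicate difference was 0.736 in resistant and 0.492 in normal tumour CAFs. In the resistant pair 17 genes were higher and 17 lower in replicate 1.

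In the authors' deposited table, Sdf2l1 (log2 fold change -3.02, adjusted p = 3.82e-05) and Dnajb11 (-2.26, adjusted p = 0.0606) had an adjusted p under 0.1 together with a log2 fold change at or beyond 2 in size. Hyou1 had -1.87 and an adjusted p = 0.0559 in the authors' deposited table, and Fkbp10 had 1.79 and an adjusted p = 0.0911. The other genes with a value in the authors' deposited table had an adjusted p of 1.

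Beyond the 35 genes, 127 further genes of the secretory pathway were read from lists by role, and 11 of them were called higher and 7 lower. That is 14.2% called, against 29.4% of all genes tested, and their median log2 fold change was 0.09. The PERK and ATF4 arm of the response held 9 of these genes, of which 2 were lower and none higher by edgeR's quasi-likelihood test or DESeq2. At an unadjusted p under 0.05 there were 3 lower, Ppp1r15a being added, and none higher. Atf3, a transcription factor induced by stress of many kinds, stood at 4.95 and 8.44 CPM in resistant tumour CAFs, against 179 and 166 CPM in normal tumour CAFs, with a log2FC of -4.68 ± 0.41 (adjusted p = 9.98e-06). Chac1, which encodes a glutathione-degrading enzyme induced by ATF4, stood at 22.8 and 26.1 CPM in resistant tumour CAFs, against 96.4 and 108 CPM in normal tumour CAFs, with a log2FC of -2.06 ± 0.36 (adjusted p = 0.000903). Atf4 and Ddit3, the central factors of the arm, were not called. Atf4 itself stood at 169 and 276 CPM in resistant tumour CAFs, against 226 and 211 CPM in normal tumour CAFs, with a log2FC of 0.02 ± 0.28 (adjusted p = 0.96). Ddit3, which encodes CHOP, stood at 109 and 148 CPM in resistant tumour CAFs, against 151 and 131 CPM in normal tumour CAFs, with a log2FC of -0.13 ± 0.29 (adjusted p = 0.782). Ppp1r15a, which encodes GADD34, the phosphatase subunit that ends the PERK signal, stood at 79.1 and 72.7 CPM in resistant tumour CAFs, against 121 and 132 CPM in normal tumour CAFs, without overlap, and had a log2FC of -0.74 ± 0.30 (adjusted p = 0.0898). The pseudokinase gene Trib3 had a log2FC of -0.31 ± 0.26 (adjusted p = 0.414). Of 7 genes of further sensors and their processing, 1 was called, Mbtps1, which encodes the site-1 protease that cleaves ATF6. It stood at 249.6 and 247 CPM in resistant tumour CAFs, against 125 and 141 CPM in normal tumour CAFs, with a log2FC of 0.90 ± 0.26 (adjusted p = 0.0184).

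The transport genes between ER and Golgi had the most higher calls of the further lists, with 5 of 24 (20.8%) called, all higher, against 15.5% of all genes tested, and a median log2FC of 0.28; at an unadjusted p under 0.05 there was 1 lower, Sec23b, and DESeq2 called none lower. Sec23a, a subunit of the COPII coat that carries cargo out of the ER, stood at 434 and 447 CPM in resistant tumour CAFs, against 180.4 and 207 CPM in normal tumour CAFs, with a log2FC of 1.19 ± 0.23 (adjusted p = 0.00209). Lman1, the cargo receptor ERGIC-53, stood at 342 and 343 CPM in resistant tumour CAFs, against 168 and 153 CPM in normal tumour CAFs, with a log2FC of 1.10 ± 0.24 (adjusted p = 0.0043), and its partner Mcfd2 had a log2FC of 0.87 ± 0.25 (adjusted p = 0.0205). The other 2 were Surf4 (log2FC 0.70 ± 0.23, adjusted p = 0.034), a cargo receptor, and Sec16a (log2FC 0.94 ± 0.33, adjusted p = 0.0472), which organises ER exit sites. DESeq2 did not call Surf4 (log2FC 0.69, adjusted p = 0.064), and offsets along mean log2 CPM gave it a log2FC of 0.27 (adjusted p = 0.338). Sec16a was not called without resistant replicate 1 (log2FC 0.56, adjusted p = 0.198) or without normal replicate 2 (log2FC 0.57, adjusted p = 0.587). Among 22 further oxidoreductases and folding factors, 2 calcium-binding proteins of the secretory pathway were higher. Rcn3 stood at 261 and 293 CPM in resistant tumour CAFs, against 111 and 117 CPM in normal tumour CAFs, with a log2FC of 1.28 ± 0.26 (adjusted p = 0.00236), and Calu at 863 and 977 CPM in resistant tumour CAFs, against 540.4 and 488 CPM in normal tumour CAFs, with a log2FC of 0.84 ± 0.21 (adjusted p = 0.00998). Calu was not called with offsets along mean log2 CPM (log2FC 0.25, adjusted p = 0.295), without resistant replicate 2 (log2FC 0.75, adjusted p = 0.0551) or without normal replicate 2 (log2FC 0.73, adjusted p = 0.106). Txndc11, a thioredoxin-like protein, was lower, at 24.0 and 12.1 CPM in resistant tumour CAFs, against 61.2 and 69.7 CPM in normal tumour CAFs, with a log2FC of -1.86 ± 0.43 (adjusted p = 0.00605). Of the 7 ER prolyl isomerases, which share the enzyme activity of FKBP65, 6 had both resistant values above both normal values, against 31.9% of all genes tested. None of the 7 was called, and their median log2 fold change was 0.51. At an unadjusted p under 0.05 there were 3, Fkbp9, Fkbp11 and Fkbp14, all positive, and DESeq2 called none.

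Of 23 further translocation genes, 1 was higher and 2 lower (13% called, against 29.4% of all genes tested), with a median log2FC of 0.02. Sec62, which helps chains enter the channel after their synthesis, was higher. It stood at 194 and 208 CPM in resistant tumour CAFs, against 80.5 and 109.7 CPM in normal tumour CAFs (log2FC 1.08 ± 0.29, adjusted p = 0.0131). Tram1, a membrane protein beside the channel, was lower, at 90.2 and 88.1 CPM in resistant tumour CAFs, against 262 and 295 CPM in normal tumour CAFs (log2FC -1.65 ± 0.26, adjusted p = 0.000505). The signal peptidase subunit gene Sec11c was lower as well, at 13.7 and 22.4 CPM in resistant tumour CAFs, against 88.0 and 75.6 CPM in normal tumour CAFs (log2FC -2.18 ± 0.41, adjusted p = 0.00143). Of 17 genes of N-glycosylation, 1 was higher and 1 lower (11.8% called, against 29.4% of all genes tested). Ganab, the catalytic subunit of glucosidase II, was higher (log2FC 0.86 ± 0.27, adjusted p = 0.0281). Mlec, a lectin of early glycans, was lower (log2FC -0.85 ± 0.26, adjusted p = 0.0263). Ganab was not called with offsets along mean log2 CPM (log2FC 0.61, adjusted p = 0.0765). Its log2FC was 1.09 without resistant replicate 2 and 0.59 without resistant replicate 1. The log2FC of Mlec was -0.64 without resistant replicate 2 and -1.08 without resistant replicate 1. Among 18 further degradation genes, Faf2 was higher (log2FC 0.95 ± 0.25, adjusted p = 0.0114). Of the 11 genes of these further lists called higher with all libraries, Calu was still called with normal replicate 1 left out and Sec23a with normal replicate 2 left out. The log2FC of the 11 genes were all positive in these fits, from 0.57 to 1.28.

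Chaperones outside the ER were read from 26 genes of the cytosol and mitochondria, of which 2 were higher and 4 lower (23.1% called, against 29.4% of all genes tested). Hspa1b and Hspa1a, the stress-induced cytosolic Hsp70 genes, had a log2FC of 2.46 ± 0.57 (adjusted p = 0.00577) and a log2FC of 2.22 ± 0.67 (adjusted p = 0.0241). Both rest on few reads. Hspa1b had 24 and 35 reads in resistant, against 11 and 8 in normal tumour CAFs, and Hspa1a 12 and 20, against 2 and 11. They are near-identical copies, so that reads may be split between them and their values are uncertain, and without resistant replicate 2 no gene of this list was called higher. Hspa1a was not called by DESeq2 (adjusted p = 0.131). Without normal replicate 2, which leaves 2 reads in the normal group, it had a log2FC of 3.45. Hsph1 (log2FC -1.24 ± 0.30, adjusted p = 0.00784) and Hspa4 (log2FC -1.06 ± 0.34, adjusted p = 0.0334), which exchange the nucleotide on cytosolic Hsp70, were lower, as was the small heat shock protein gene Cryab (log2FC -1.11 ± 0.29, adjusted p = 0.012). Hspa4 was not called without resistant replicate 2 (log2FC -0.58, adjusted p = 0.085), and without resistant replicate 1 it had a log2FC of -1.78 (adjusted p = 0.00124). Hspb1, another small heat shock protein gene, had 0 and 1 read in resistant, against 185 and 309 reads in normal tumour CAFs, a ratio of pooled counts per read of 0.00342 (exact 95% interval 8.63e-05 to 0.0191).

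**Figure D4:**
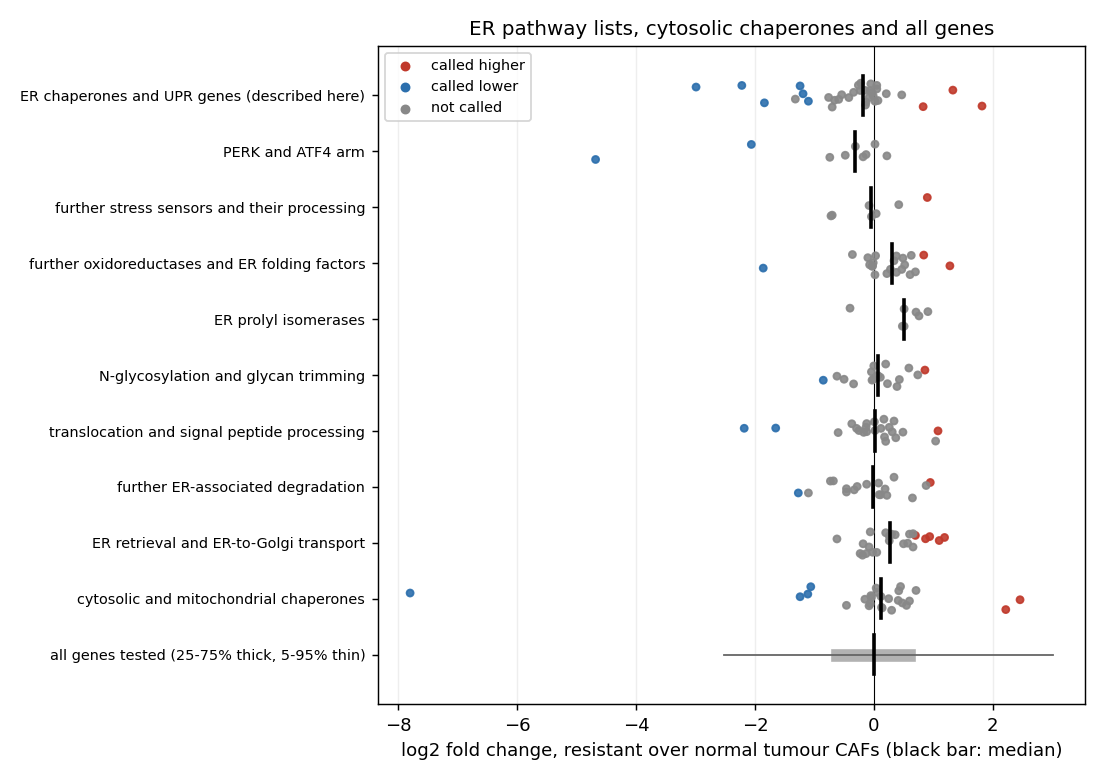
Log2 fold change of resistant over normal tumour CAFs for each tested gene (points), with the median of each row as a line. The rows are the list of 35 genes as a whole, the further lists of the secretory pathway and the chaperones outside the ER. The last row gives the spread and median of all genes tested. The list of 35 genes has its median at -0.18, and the medians of the other lists lie between -0.31 and 0.51.

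The 15 alternatives to the test, the scaling, the filter and the set of libraries kept 4 of the 9 calls throughout, those of Hyou1, Dnajb11, Sdf2l1 and Fkbp10. The 10 chaperones and co-chaperones are a list chosen with earlier results of these data known. Of them, 6 were lower with all libraries, against 13.9% of all genes tested. Fewer of them were called lower with either normal replicate left out, where the share called was also smaller over all genes tested. The count of lower genes among all 34 was 10 without resistant replicate 1, and 3 without normal replicate 1 and without normal replicate 2. Of the higher calls, Fkbp10 alone was left with offsets along reads per exonic base.

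**Figure D5:**
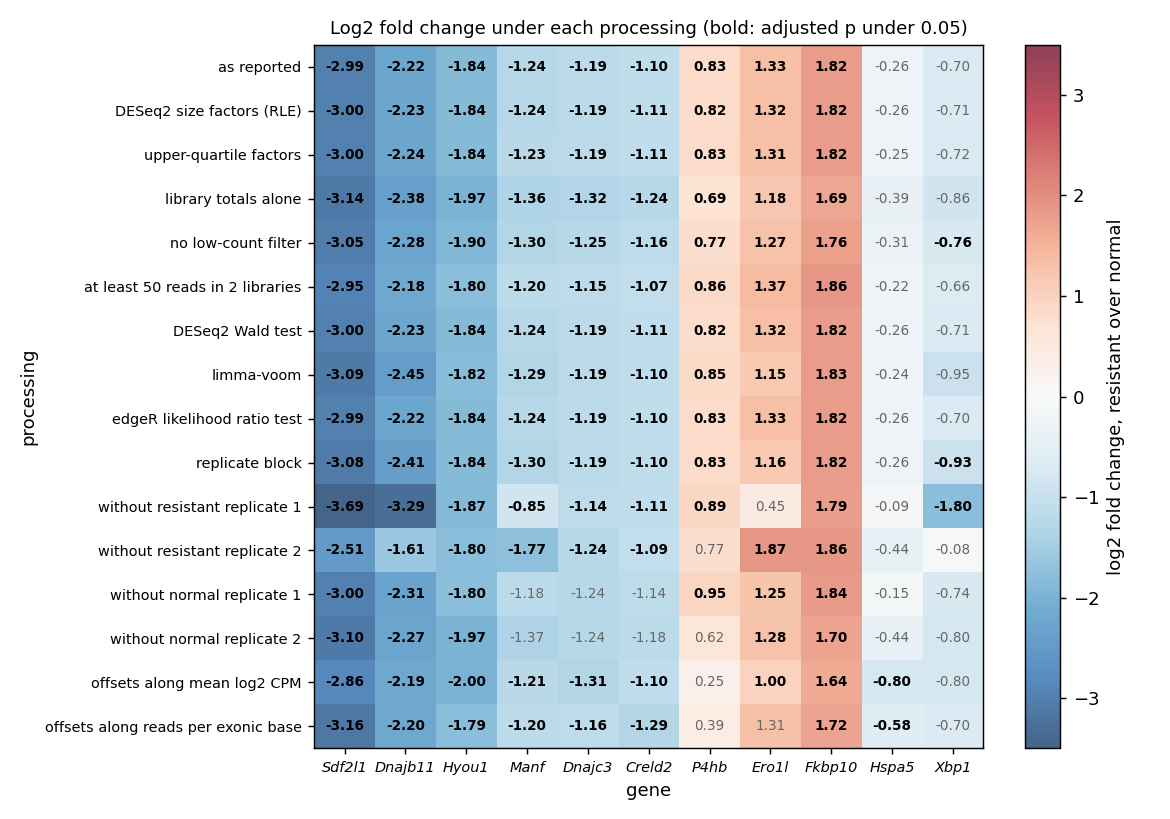
Log2 fold change of resistant over normal tumour CAFs for the named genes under the main test and each of the 15 alternatives, with calls at an adjusted p under 0.05 marked. Hyou1 (-2.00 to -1.79) and Fkbp10 (1.64 to 1.86) hold their values closely, and Xbp1 runs from -1.80 without resistant replicate 1 to -0.08 without resistant replicate 2.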

How the data were processed

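RNA was measured in 2 libraries per group. Per gene symbol, the deposited table gives raw read counts, made by the authors. The submitters' processing notes name the mm9 build and, without roles or settings, DESeq2, HTSeq 0.7.2, TopHat2 2.1.1, Picard 1.62 and bcl2fastq 2; the sources used here do not give the strand setting of the counting. The log2 fold changes and the adjusted p-values of the authors' deposited table were copied for the 35 genes, and the authors' normalized table was not used.

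Testing used edgeR 4.0.16 (R 4.3.3), with filterByExpr (minimum count 10) by group, TMM scaling, and the quasi-likelihood F test with the group as the only term over 12001 genes. SE were computed from the log2 fold change and its F value. Levels per kilobase are means over the 2 libraries of a group. Exonic lengths came from GENCODE M21 (GRCm38), where 99.4% of tested symbols were found, and served as lengths and for overlaps of annotated exons; element matches were found in RefSeq windows of GRCm38.p6. The loess offsets used a span of 0.5. The procedure was tested on simulated counts.

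Library totals were 2785936 to 5558541 reads. Where a gene had no read, as many as 3 counts remain possible, which is 0.54 to 1.08 CPM by library totals; floors and intervals cover counting error only. The genes, lists and tests were chosen with earlier results of these data known. All of the 35 genes are named, and so are the called genes of the further lists, except for a result that is not reported here. Uncalled genes of the further lists, and the 3 genes with ERSE outside the list, were picked after seeing their values. As alternatives served 3 other scalings (relative log expression, upper-quartile factors, unscaled totals), 2 other low-count filters (none, or 50 reads in at least 2 libraries), 3 other tests (DESeq2 1.42.0, voom from limma 3.58.1, edgeR's likelihood ratio test), a term for the replicate number, the 2 kinds of offsets, and the omission of each library.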

Additional observations from a re-analysis of the deposited data

How the results depend on the processing

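Over 15 alternatives the 9 calls kept their direction, and Hsp90b1 was the one gene of the list whose direction reversed past the threshold (-0.50 with offsets along mean log2 CPM). The 3 higher genes numbered 1 with offsets along reads per exonic base and 2 to 3 with a library left out. The 6 lower genes numbered 11 with offsets along mean log2 CPM and 3 to 10 with a library left out; among chaperones and co-chaperones they numbered 3 to 7 with a library left out. The median of the list, -0.18, was -0.33 with library totals, where the median of all genes was -0.14. It was -0.15 with at least 50 reads, -0.36 with offsets along mean log2 CPM, -0.27 along reads per exonic base, and -0.28 to -0.14 with a library left out.

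The 11 higher genes of the further ER lists numbered 17 with the replicate block, 6 with offsets along mean log2 CPM and 1 to 25 with a library left out; the 7 lower genes numbered 5 to 16 with a library left out. Of the chaperones outside the ER, 2 were higher, Hspa1a and Hspa1b. The count of higher genes was 1 with at least 50 reads, DESeq2 or either set of offsets. It was 5 with voom, 4 with the replicate block and 0 to 3 with a library left out. Hspa1a and Hspa1b had at most 35 reads in a library and were not tested with at least 50 reads. The gene called higher there was thus another one. The 4 lower ones numbered 1 to 4 with a library left out.

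With the replicate block, the list held 3 higher and 9 lower genes, Ero1lb (-1.63, adjusted p = 0.00182), Serpinh1 (-0.64, 0.0353) and Xbp1 (-0.93, 0.00685) being added, and all genes held 2257 higher and 2267 lower calls. Deviations of libraries with the same number correlated at 0.217, but the labels do not say that a number pairs libraries. The cause of these moves was not tested, apart from the libraries left out, which leave 1 library in an arm, assumed to vary like the other group. At this depth genes near the floor such as Derl3 allow no statement.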
